A study of Mus musculus with 18 samples.

Results

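The comparison described here is between macrophages from contused mouse spinal cords that had received recombinant interleukin-4 (rIL-4) and macrophages from cords that had received phosphate-buffered saline (PBS). It was defined by the treatment and cell type given for each library, and it holds 6 of the 18 libraries of the study, 3 from rIL-4 mice (mice 8, 9 and 10) and 3 from PBS mice (mice 1, 2 and 3). All mice were adult female C57BL/6J mice with a contusion of the thoracic cord and a single intraspinal injection into the lesion 48 h later, so that both groups carried the injury and the injection itself, and cells were collected 24 h after the injection. The other 12 libraries were rIL-13 macrophages and the microglia of the same 9 mice. Macrophages were sorted by flow cytometry on CD45, CD11b and F4/80, which are shared by other myeloid cells to varying degrees. The gate of the study sets microglia apart as CD45low cells and macrophages as CD45high cells. Each of the 6 libraries came from a different mouse.

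IL-4 is a cytokine of type 2 immunity, made mainly by T helper 2 cells, basophils, mast cells and eosinophils. On macrophages it binds a receptor made of IL-4Rα and either the common γ chain or IL-13Rα1, which activates Janus kinases and the transcription factor STAT6. STAT6 switches on a set of genes known as alternative activation, among them chitinase-like proteins, the mannose receptor and several CC chemokines, and it can repress genes that respond to Toll-like receptors and interferons. After spinal cord injury, macrophages derived from blood monocytes enter the lesion, take up myelin, red cell and cell debris, and for the most part keep inflammatory features for weeks.

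The total was between 36445342 and 38426762 counts in PBS macrophages and between 42320537 and 45849829 in rIL-4 macrophages, so that the depths did not overlap. Between 17553 and 18174 genes had a count with PBS and between 17452 and 17529 with rIL-4. Cd68 and the other 15 markers on a list of macrophage and monocyte genes were detected in all 6 libraries, at a summed level of 26127 to 29970 CPM (counts scaled to a common library size) with PBS and of 18347 to 25982 with rIL-4. Marker lists of T, NK and B cells were near 0, at a summed 5.34 to 10.6 CPM. A list of 15 microglia genes was not: it summed to 3938 to 6390 CPM in PBS macrophages and to 1951 to 2407 CPM in rIL-4 macrophages, against 12123 to 20280 CPM in PBS microglia and 5246 to 7529 CPM in rIL-4 microglia. Of these 15 genes, 13 were lower with rIL-4 in the macrophage libraries and 0 were higher. The CD45high gate of the study was set to leave out CD45low microglia, and the paper reports a high purity after sorting. Fewer microglia among the sorted cells and less of these transcripts per macrophage cannot be told apart in bulk libraries. Where genes were at least 4-fold higher in rIL-13 microglia than in rIL-13 macrophages, most are given below with that ratio or within a count of such genes, and a gene without it may still be expressed by microglia.

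rIL-4 changed the expression of 1900 of 13606 genes tested in macrophages (14.0%) at an adjusted p under 0.05 in edgeR's quasi-likelihood test, and 3798 genes (27.9%) passed before adjustment. Of the 1900 genes, 921 were higher (6.77% of the genes tested) and 979 were lower (7.20%). The 6 libraries fell into groups that did not overlap for 4692 genes (34.5%). The count of differentially expressed (DE) genes was smaller whichever mouse was left out, at 1188, 1234 and 1041 without PBS mice 1, 2 and 3 and 1495, 1614 and 1102 without rIL-4 mice 8, 9 and 10. With DESeq2's Wald test 2660 genes were called, including all 1900. Every one of the 1900 genes that was tested under another setting kept its direction there. The median log2 fold change over all genes was 0.02, and 7042 of them had a positive value.

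**Figure D1:**
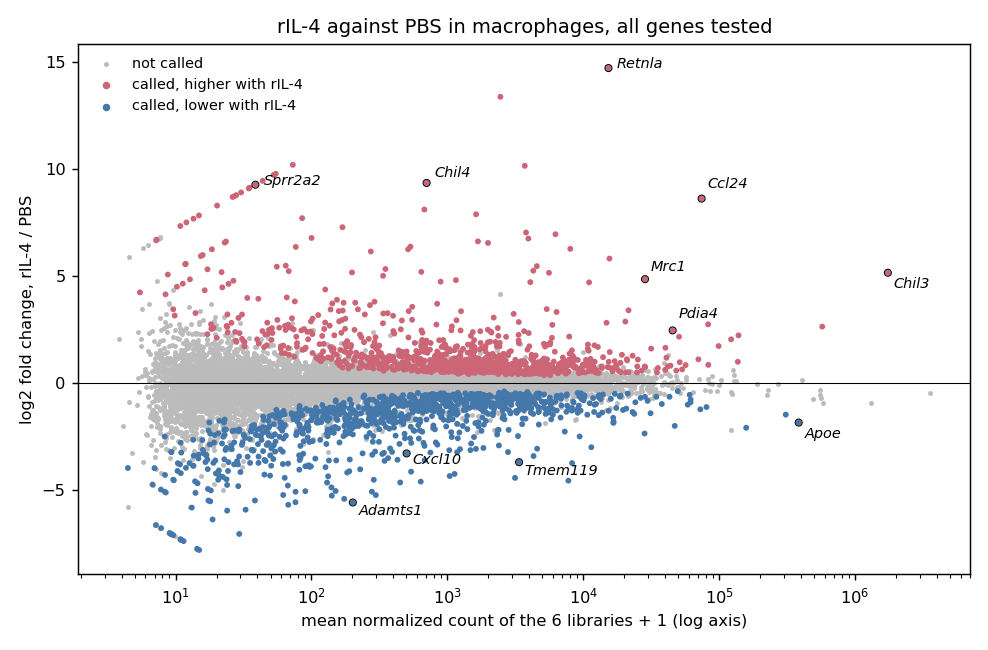
Each point is a gene tested, placed by its mean normalized count over the 6 libraries plus 1 (horizontal log axis) and its log2 fold change of rIL-4 over PBS (vertical axis), in colour where the adjusted p was under 0.05. Retnla, Chil4 and Ccl24 stand at the top, Chil3 at the far right, and Adamts1, Tmem119 and Cxcl10 among the genes that fell.

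Alternative activation markers had the highest median of the lists with at least 7 tested members. Of 21 tested members of a list of these markers, 15 were higher with rIL-4, 3 were lower (Msr1, Alox15 and Fcrls) and 3 were not called (Cd209a, Cd209d and Ch25h), with a median log2 fold change of 4.25 against 0.02 over all genes. Many of its members were known to respond, and the list was drawn up with earlier results of these data known. Its count and median are therefore a description and no independent test. The count of each list below can be set against the 6.77% of all genes that were higher and the 7.20% that were lower. Values below are normalized counts in PBS mice 1, 2 and 3 and then in rIL-4 mice 8, 9 and 10, and each log2 fold change is given with its standard error and the adjusted p of edgeR's quasi-likelihood test.

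Chil3 (ENSMUSG00000040809.10, chromosome 3 from 106147554 to 106167564 in GRCm38, as for all genes here), which encodes the secreted chitinase-like lectin Ym1, had 52372, 133955 and 103814 normalized counts with PBS and 2989060.0, 3936270.0 and 3248630.0 with rIL-4. It was 35.3-fold higher with rIL-4 (log2 fold change 5.14 ± 0.38, adjusted p = 4.08e-05). Scaled by union exon length, its level went from 3978 ± 1539 to 133874 ± 18356 TPM, length-scaled counts set to a common sum (SD, n = 3), and its rank among all genes from 25 to 1. Its neighbour Chil4 (chromosome 3 from 106201490 to 106219507), which encodes the closely related Ym2 and could share reads with Chil3, had 0, 2.16 and 3.99 counts with PBS and 940.2, 1946 and 1322 with rIL-4 (log2 fold change 9.34 ± 0.56, adjusted p = 1.19e-05). Retnla (ENSMUSG00000061100.3, chromosome 16 from 48842551 to 48844461), which encodes the secreted protein RELMα, showed the largest log2 fold change of all genes named. It had 0, 2 and 1 raw counts in the PBS libraries and 21721, 48023 and 32418 in the rIL-4 libraries, a ratio of 29480.0 (95% interval from 10090.0 to 142900.0) after scaling. That interval covers counting error only.

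Slc7a2, which carries arginine into the cell, rose from 512, 509.9 and 630.4 to 24056, 40459 and 27399 counts (log2 fold change 5.804 ± 0.25, adjusted p = 1.86e-06). Mrc1 (chromosome 2 from 14229392 to 14332057), the mannose receptor CD206, had 1760.4, 2184 and 1837 counts with PBS and 39561, 71805 and 53732 with rIL-4 (log2 fold change 4.84 ± 0.25, adjusted p = 5.26e-06). In all of these genes every rIL-4 mouse lay above every PBS mouse, and the 3 mice of a group were closer to each other than to any mouse of the other group on the log scale.

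Mgl2, a galactose-binding lectin of the cell surface (CD301b), had 78.4, 48.5 and 92.8 counts with PBS and 5943, 11393 and 6107 with rIL-4 (log2 fold change 6.74 ± 0.39, adjusted p = 9.69e-06). Pdcd1lg2, which encodes PD-L2, a ligand that restrains T cells, had 38.2, 50.7 and 38.9 and 2372, 5989.8 and 3454 counts (log2 fold change 6.53 ± 0.41, adjusted p = 1.38e-05). Cd163, the receptor for haemoglobin bound to haptoglobin, had 177, 295 and 151 and 5876, 24958 and 16729.8 counts (log2 fold change 6.26 ± 0.67, adjusted p = 0.000336), with rIL-4 mouse 9 over 4 times mouse 8. Clec7a, which encodes the β-glucan receptor dectin-1, was higher by a log2 fold change of 2.86 ± 0.18, and Il31ra, the receptor chain for IL-31, by 7.27 ± 1.06. Msr1, the class A scavenger receptor, fell from 17153, 21848 and 18839.6 to 5743, 7921 and 6478 counts (log2 fold change -1.51 ± 0.17, adjusted p = 0.000496). Fcrls, an Fc receptor-like gene that is also on the microglia marker list, fell from 17722, 9690.1 and 18849.5 to 1466, 825 and 1099.7 (log2 fold change -3.76 ± 0.35, adjusted p = 0.00014) and was 5.31-fold higher in rIL-13 microglia than in rIL-13 macrophages.

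The upstream sequence of 4 of these genes is shown, and only genes with a match were shown. The motifs were looked for because STAT6 is known to bind palindromes of TTC and GAA with 4 bases between them. Other STAT proteins bind the same palindrome with 3. The 250 bases before the RefSeq start (GRCm38.p6) are given 5′ to 3′ on the gene's strand, with each match to TTCNNNNGAA or TTCNNNGAA in capitals. Both motifs read the same on either strand, and a match to one may overlap a match to the other.
Retnla, chr16:48842359-48842608, plus strand: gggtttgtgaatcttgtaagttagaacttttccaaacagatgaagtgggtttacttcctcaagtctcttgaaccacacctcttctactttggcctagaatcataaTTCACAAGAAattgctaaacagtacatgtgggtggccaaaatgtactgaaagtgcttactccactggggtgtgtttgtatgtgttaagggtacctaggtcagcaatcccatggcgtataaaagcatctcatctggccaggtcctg
Pdcd1lg2, chr19:29410669-29410918, plus strand: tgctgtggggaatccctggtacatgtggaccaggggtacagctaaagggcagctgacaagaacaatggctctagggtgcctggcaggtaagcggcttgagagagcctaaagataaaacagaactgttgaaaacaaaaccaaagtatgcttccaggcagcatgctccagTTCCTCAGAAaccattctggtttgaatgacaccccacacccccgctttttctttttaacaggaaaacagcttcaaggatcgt
Chil3, chr3:106167565-106167814, minus strand: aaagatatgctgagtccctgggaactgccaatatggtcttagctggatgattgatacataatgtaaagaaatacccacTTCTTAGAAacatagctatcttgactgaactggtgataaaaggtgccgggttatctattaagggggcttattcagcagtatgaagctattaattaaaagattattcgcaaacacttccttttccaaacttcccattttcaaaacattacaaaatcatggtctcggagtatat
Chil4, chr3:106219480-106219729, minus strand: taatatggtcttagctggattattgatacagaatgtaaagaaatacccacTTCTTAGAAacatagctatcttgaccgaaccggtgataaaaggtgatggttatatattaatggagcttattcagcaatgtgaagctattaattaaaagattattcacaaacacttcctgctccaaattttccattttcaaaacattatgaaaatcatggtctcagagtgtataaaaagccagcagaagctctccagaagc
Retnla held TTCACAAGAA 145 bases before its start and Pdcd1lg2 TTCCTCAGAA 82 bases before, both with the 4-base spacing. Chil3 and Chil4 held the same 9 bases, TTCTTAGAA, 172 and 200 bases before the start. Of 15 list members with a sequence, 3 held the 4-base form and 3 the 3-base form, while of 9752 tested genes with a sequence 5.83% held the former and 7.24% the latter. Among 25 tested interferon-stimulated genes with a sequence, 5 held the 4-base form and 3 the 3-base form. Among the genes called higher the shares were 8.01% and 7.30% of 712, and among those called lower 6.94% and 8.14% of 749. A match is a description of these letters and not of binding.

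Of 13 tested genes for receptor chains and signal transducers, 2 were higher, 1 was lower and the median log2 fold change was 0.07. With 6.77% of all genes higher and 7.20% lower, counts this small say nothing particular about the list. Il4ra, the chain that both receptor types share, had 18583, 23034 and 17721 counts with PBS and 11746, 46699.6 and 21895 with rIL-4 (log2 fold change 0.44 ± 0.52, adjusted p = 0.645), and the groups overlapped. Without rIL-4 mouse 9 its log2 fold change was -0.23. Il2rg, the common γ chain, had a log2 fold change of 0.12 ± 0.16, Jak1 of -0.03 ± 0.12 and Stat6 of 0.13 ± 0.14, and none of them was called. Il13ra1, the other partner of IL-4Rα, fell from 4211, 5174 and 4735 to 2521, 3707 and 2798 counts (log2 fold change -0.64 ± 0.17, adjusted p = 0.0329). Among the Janus kinases, Jak2 was higher, with 752, 651 and 651 counts in PBS mice and 3092, 5239.8 and 3704 in rIL-4 mice (log2 fold change 2.56 ± 0.26, adjusted p = 0.000247). Akt1 was higher by a log2 fold change of 0.59 ± 0.15 (adjusted p = 0.0269).

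Inhibitors that cytokine receptors induce against themselves were higher in part. Among 13 tested members, Cish, Socs1, Socs2, Socs5 and Ptpn2 were higher and Ptpn6 was lower. Cish, a SOCS family protein induced by STAT5 and STAT6, had 112, 70.1 and 58.9 counts with PBS and 1375, 3917 and 1399 with rIL-4 (log2 fold change 4.796 ± 0.54, adjusted p = 0.000446). Socs1, which blocks Janus kinases, had 80.4, 70.1 and 109.7 and 651, 1593 and 799 counts (log2 fold change 3.55 ± 0.47, adjusted p = 0.00102), and Socs2 had a log2 fold change of 3.69 ± 0.48. Socs3, known as the inhibitor of IL-6 family signalling, overlapped between the groups (log2 fold change -0.57 ± 0.40, adjusted p = 0.4). Without PBS mouse 3, 3 of the 5 genes were called higher.

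Among 24 tested transcription factors linked to alternative activation, 7 were higher and 2 were lower, with a median log2 fold change of 0.47. Over all genes 6.77% were higher and 7.20% lower, so that the 2 lower factors were near that share. The 7 calls were kept with any mouse left out, and 4 genes were called higher when all 18 libraries were fitted together. Irf4, which drives alternative activation downstream of the histone demethylase JMJD3, had 53.3, 44.2 and 59.9 counts with PBS and 386, 269.9 and 241 with rIL-4 (log2 fold change 2.52 ± 0.32, adjusted p = 0.000818). Batf3, an AP-1 family factor best known from dendritic cells, had 43.2, 28.03 and 44.9 and 231, 375 and 279 counts (log2 fold change 2.93 ± 0.36, adjusted p = 0.000699). Pparg, the lipid-sensing nuclear receptor PPARγ, rose from 396, 437 and 474 to 1201, 1519.6 and 1417 counts (log2 fold change 1.67 ± 0.30, adjusted p = 0.00528), and Ppargc1b, its coactivator PGC-1β that promotes mitochondrial genes, from 79.4, 77.6 and 69.8 to 337, 203 and 326 (log2 fold change 1.94 ± 0.34, adjusted p = 0.00464). Egr2 was higher by 1.99 ± 0.26, Klf4 by 1.55 ± 0.23 and Bhlhe40 by 0.98 ± 0.14 on the log2 scale. Bhlhe41, a repressor of the same family as Bhlhe40, fell from 3028, 2131 and 2723 to 647, 157 and 279 counts (log2 fold change -2.84 ± 0.55, adjusted p = 0.00706), and the stress factor Atf3 had a log2 fold change of -0.63 ± 0.13. Nr4a1, an immediate early nuclear receptor, was at 5023, 4243 and 4441 and 1494, 2866 and 2019 counts and missed the threshold (log2 fold change -1.098 ± 0.33, adjusted p = 0.0513).

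Most chemokines of type 2 responses were higher, with 6 of 7 tested members called (6.77% over all genes) and a median log2 fold change of 2.73. With voom 5 were called higher, and 4 when all 18 libraries were fitted together. Ccl24 (eotaxin-2, chromosome 5 from 135569937 to 135573049), which attracts eosinophils through CCR3, had 266, 544 and 333 counts with PBS and 60289.9, 232805 and 151455 with rIL-4, 389.6-fold higher (log2 fold change 8.61 ± 0.74, adjusted p = 9.82e-05). By length-scaled level it went from rank 3976 to rank 13. Ccl8, a monocyte and T helper 2 cell attractant, had 34.2, 56.1 and 83.8 and 2753, 9849 and 9974 counts (log2 fold change 7.02 ± 0.59, adjusted p = 9.43e-05). Ccl6, abundant already with PBS, had 16400.3, 30410.2 and 18792 and 135172, 159531 and 137746 counts (log2 fold change 2.73 ± 0.27, adjusted p = 0.000199), and Ccl9 was higher by a log2 fold change of 2.15 ± 0.41. Ccl17 and Ccl22, the ligands of CCR4, were called higher at low levels, Ccl17 from 5.02, 5.39 and 2.99 to 43.1, 60.5 and 21.4 counts and Ccl22 from 23.1, 39.9 and 19.95 to 136, 88.4 and 43.7. Ccl7 overlapped between the groups (log2 fold change 0.17 ± 0.61, adjusted p = 0.893), and its sign changed without rIL-4 mouse 9.

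The 12 largest rises were those of Retnla, Msx3, AC167013.5, Rnase2a, Kcnd3, Erv3, Chil4, Ccl24, Ddx4, Tuba8, Crabp2 and Il31ra, among called genes with a mean of at least 100 normalized counts in the higher group and no overlap. Rnase2a, an eosinophil-type ribonuclease with near-identical relatives that could share its reads, had 5.02, 8.62 and 5.99 counts with PBS and 7261, 6947 and 8031 with rIL-4 (log2 fold change 10.14 ± 0.45, adjusted p = 1.95e-06), and its relative Ear2 had 94.5, 279 and 242 and 9803, 10339 and 6558 (log2 fold change 5.45 ± 0.38, adjusted p = 2.61e-05). Markers that define eosinophils (Epx, Prg2, Prg3 and Il5ra) were below 1 CPM in all 6 libraries, as were 15 of the 18 genes on a list for eosinophils, basophils and mast cells. The list summed to 14.0 to 18.6 CPM with PBS and 4.27 to 7.40 with rIL-4. Most of that sum was Siglecf, also an eosinophil marker, at 13.4, 11.2 and 10.6 CPM in PBS mice and 5.26, 3.97 and 3.64 in rIL-4 mice, which fell (log2 fold change -1.42, adjusted p = 0.00161). Msx3, a homeobox gene known from the dorsal neural tube, had 1 raw count over the 3 PBS libraries and 3143, 8676 and 4483 in rIL-4 mice 8, 9 and 10. AC167013.5, Kcnd3 (a potassium channel) and Erv3 (an endogenous retroviral sequence) had no count in any PBS library, and their means were at least 46.7-fold, 34.9-fold and 33.6-fold higher with rIL-4 when 3 counts per library are taken as the limit of detection. Ddx4, a germ cell RNA helicase, varied widely among the rIL-4 mice, from 197 to 3223 normalized counts, with 5.02, 5.39 and 3.99 in the PBS mice. Tuba8, a tubulin, had 12.1, 16.2 and 12.97 and 949, 6515 and 2253 counts. Crabp2, a retinoic acid binding protein, had 2 raw counts with PBS and 553 with rIL-4, a scaled ratio of 239 (95% interval from 65.9 to 1981). Sprr2a2, a small proline-rich protein of epithelia whose near-identical copy Sprr2a1 could share its reads, had no count with PBS and 89.5, 103 and 33.03 with rIL-4, at least 24.5-fold higher, and it was 6.66 times as high in rIL-13 microglia as in rIL-13 macrophages.

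**Figure D2:**
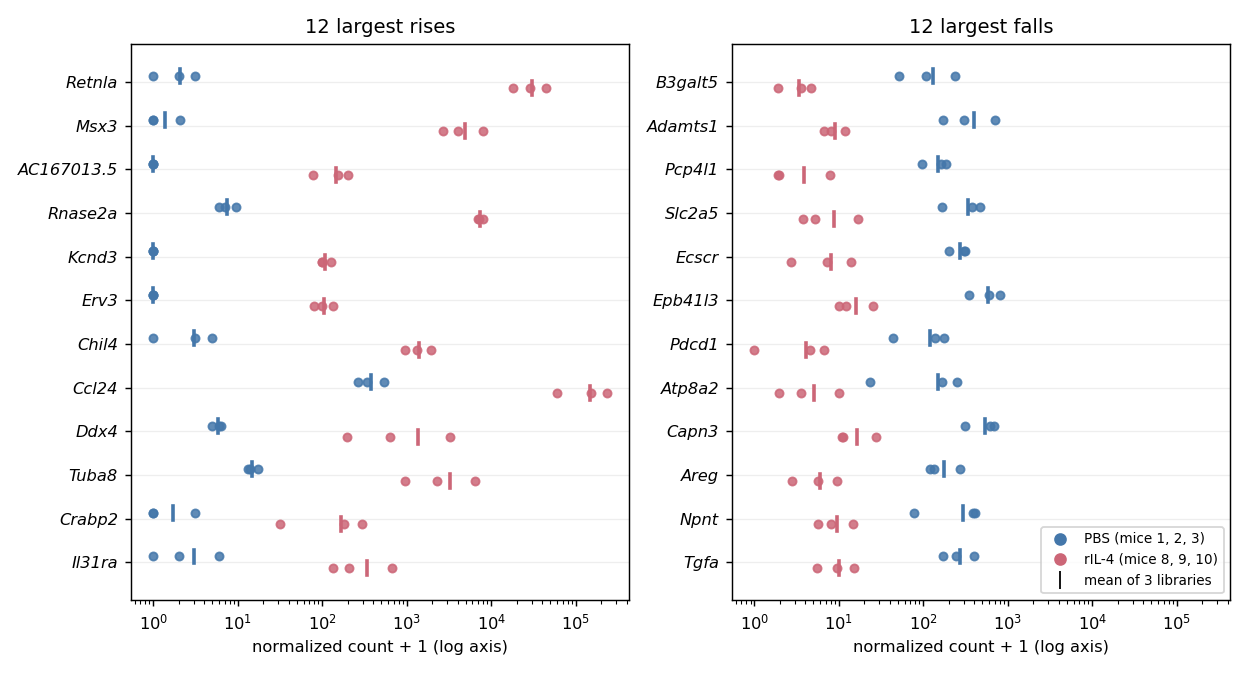
Normalized counts plus 1 (log axis) of the 12 largest rises and the 12 largest falls among called genes, 1 point per library, blue for PBS mice 1, 2 and 3 and red for rIL-4 mice 8, 9 and 10, with a bar at the mean of the 3. No PBS point overlaps an rIL-4 point of the same gene, since the choice required it, and Ddx4 and Crabp2 show a wide spread among rIL-4 mice.

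The 12 largest falls were in B3galt5, Adamts1, Pcp4l1, Slc2a5, Ecscr, Epb41l3, Pdcd1, Atp8a2, Capn3, Areg, Npnt and Tgfa. Adamts1, a secreted metalloprotease, had 706, 169 and 303 counts with PBS and 10.98, 5.58 and 7.14 with rIL-4 (log2 fold change -5.597 ± 0.62, adjusted p = 0.000409). Slc2a5, the fructose transporter that marks microglia, had 471, 166 and 378 and 4.22, 2.79 and 16.1 counts (log2 fold change -5.43 ± 0.74, adjusted p = 0.00124). Tgfa and Areg, both ligands of the epidermal growth factor receptor, fell from 398, 171 and 239 to 8.45, 13.96 and 4.46 and from 119, 267 and 134 to 8.45, 4.65 and 1.79. Pdcd1, the inhibitory receptor PD-1, fell from 137, 43.1 and 177 to 0, 5.58 and 3.57 (log2 fold change -5.25 ± 0.87, adjusted p = 0.00329). In the rIL-13 libraries, which add to the estimate of the spread but to neither mean compared, 11 of these 12 genes were at least 4-fold higher in microglia than in macrophages, while 11 of the 12 largest rises were not higher in microglia, the exception being Crabp2 (69.8 times as high). The part that microglia in the sorted fraction played in these falls was not tested.

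That asymmetry held over the whole list of genes, as a setting added after seeing the data showed. Of the 1228 genes at least 4-fold higher in rIL-13 microglia than in rIL-13 macrophages, 26.4% were called lower with rIL-4 and 3.09% higher, with a median log2 fold change of -1.02. Of the 12378 others, 5.29% were called lower and 7.13% higher. Among 7241 genes that were not higher in rIL-13 microglia, 938 were called, 602 higher (8.31%) and 336 lower (4.64%). Tmem119, a membrane protein that defines microglia in the brain and cord, had 7357, 4331 and 7100.5 counts in PBS macrophages and 516, 416 and 489 in rIL-4 macrophages (log2 fold change -3.71 ± 0.24, adjusted p = 1.87e-05). Cx3cr1, the fractalkine receptor, which microglia carry at high and Ly6C-low monocytes at moderate levels, had 16687, 9519 and 18570.2 and 601, 549 and 711 counts (log2 fold change -4.58 ± 0.30, adjusted p = 1.87e-05). Olfml3 fell from 16182, 11145 and 20745 to 3826, 1552 and 2964 counts (log2 fold change -2.51 ± 0.41, adjusted p = 0.00291). PBS mouse 2 was lowest of the PBS mice in all of these genes and still above every rIL-4 mouse.

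**Figure D3:**
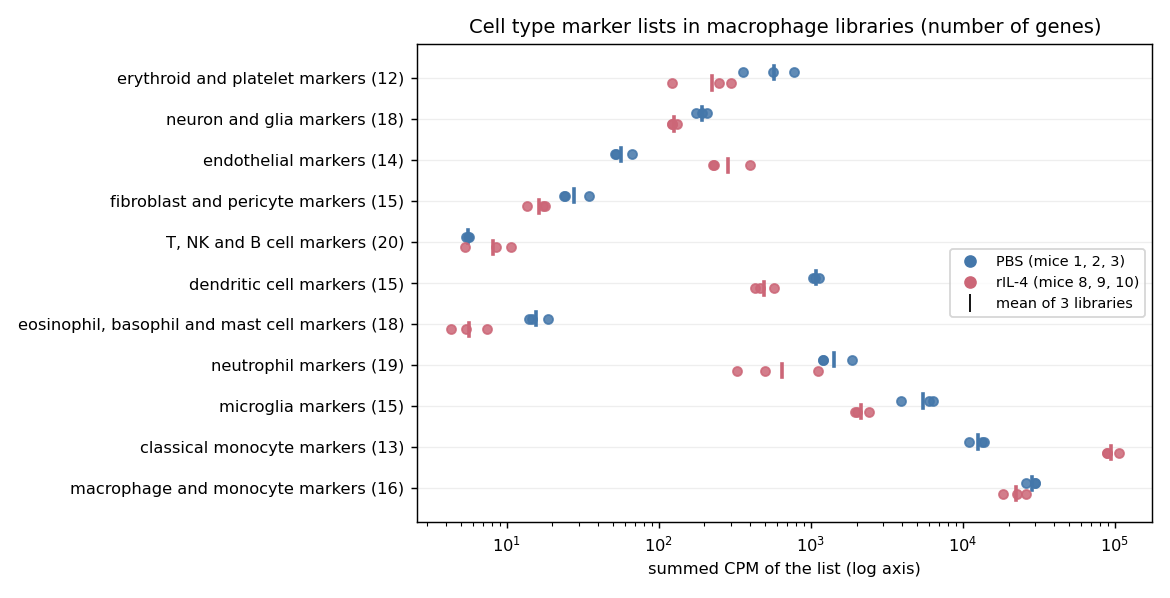
Summed CPM of cell type marker lists (log axis) in the 6 macrophage libraries, 1 point per library, blue for PBS mice 1, 2 and 3 and red for rIL-4 mice 8, 9 and 10, with a bar at the mean. The microglia list lies at 3938 to 6390 CPM with PBS and 1951 to 2407 with rIL-4, and the classical monocyte list at 10989 to 13714 and 88122 to 106420, where Chil3 takes most of the rIL-4 sum.

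The following marker lists did not overlap between the groups, each with an exact permutation p of 0.1, the smallest that 3 mice against 3 allow. Neutrophil genes summed to 1205 to 1873 CPM with PBS and 328 to 1109 with rIL-4, and 3 of 19 were called lower (Camp, Ngp and Ltf). Dendritic cell genes summed to 1028 to 1139 and 427 to 575 CPM, with Cd24a, Irf8, Fscn1 and Siglech lower and Batf3 higher. Most of the sum was Cd24a (602.5, 752.8 and 619.5 CPM in PBS mice 1, 2 and 3) and Irf8 (349.1, 312.4 and 304.1). Zbtb46, Flt3, Xcr1 and Clec9a of the same list were at most 5.42 CPM and were not called. Siglech is on the microglia list as well. Endothelial genes summed to 51.2 to 66.7 CPM with PBS and 228 to 398 with rIL-4, with 2 genes higher: Pecam1 (CD31) rose from 355, 266 and 285 to 5180.0, 11614 and 6758 counts (log2 fold change 4.703 ± 0.34, adjusted p = 3.62e-05) and Flt1, a receptor for vascular endothelial growth factor, from 115, 329 and 237 to 1724, 3538 and 1613 (log2 fold change 3.34 ± 0.41, adjusted p = 0.000617), and in the rIL-13 libraries they were 3.396 and 8.47 times as high in microglia as in macrophages. Cldn5, Kdr, Tek, Tie1 and Ly6c1 of the same list were lower, and Cdh5, which defines endothelium, was below 1 CPM in all 6 libraries. Fibroblast genes summed to 24.0 to 34.8 CPM with PBS and 13.5 to 17.98 with rIL-4.

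Inflammatory chemokines and cytokines were lower or not called. Of 13 tested inflammatory chemokines, 0 were higher and 5 were lower (Ccl3, Cxcl1, Cxcl10, Cxcl14 and Cxcl16), with a median log2 fold change of -1.46. Leaving out rIL-4 mouse 8 or rIL-4 mouse 10 left 3 calls, and of the 9 members not higher in rIL-13 microglia 2 were called lower. Cxcl10 (chromosome 5 from 92346638 to 92348889), the interferon-induced ligand of CXCR3, had 921, 1050.0 and 755 counts with PBS and 56.6, 126 and 92.8 with rIL-4, 9.88-fold lower (log2 fold change -3.304 ± 0.47, adjusted p = 0.00154). Ccl3, an inflammatory CC chemokine, had 5633, 6067 and 5194 and 1165, 1936 and 1296 counts (log2 fold change -1.94 ± 0.43, adjusted p = 0.0147). Among 21 inflammatory cytokines and enzymes, 8 were lower (Il1a, Tnf, Il18, Il15, Lif, Nlrp3, Casp1 and Tnfsf9) and 0 were higher, with a median of -0.95. That count was 3 or 4 without any 1 of PBS mice 1, 2 and 3 or rIL-4 mice 8 and 10 and fell to 2 when the 18 libraries were fitted jointly, and 4 of the 12 members not higher in microglia were called lower. Tnf had 3975, 4798 and 2971 counts with PBS and 677, 1058 and 809 with rIL-4 (log2 fold change -2.201 ± 0.37, adjusted p = 0.00356). Casp1, the protease that matures IL-1β, had a log2 fold change of -0.78 ± 0.15 and Il15 one of -1.44 ± 0.23.

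Nos2, the inducible nitric oxide synthase whose protein the study stained, had 195, 461 and 131 counts with PBS and 169.8, 2048 and 724 with rIL-4, and the groups overlapped (log2 fold change 1.900 ± 0.93, adjusted p = 0.216). The single highest value, in rIL-4 mouse 9, was over 4 times the highest PBS value. Of 33 tested genes of the Toll-like receptor and NF-κB pathway, 8 were lower and 3 were higher. Over all genes 7.20% were lower and 6.77% higher, so that the 3 higher genes were near that share. Tlr13, a sensor of bacterial ribosomal RNA, fell from 19394, 20916 and 19662 to 7557, 6967 and 8132 counts (log2 fold change -1.39 ± 0.12, adjusted p = 0.000111), and Tlr2, which senses lipopeptides, from 17074, 15285 and 15138 to 5767, 4363 and 6608 (log2 fold change -1.49 ± 0.18, adjusted p = 0.000543). Tlr8 was higher by a log2 fold change of 0.88 ± 0.13 and Nfkb1, the p50 subunit precursor, by 1.00 ± 0.23. Without PBS mouse 2 or rIL-4 mouse 8, 5 genes were called lower, and without PBS mouse 3 or rIL-4 mouse 9, 1 was called higher.

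**Figure D4:**
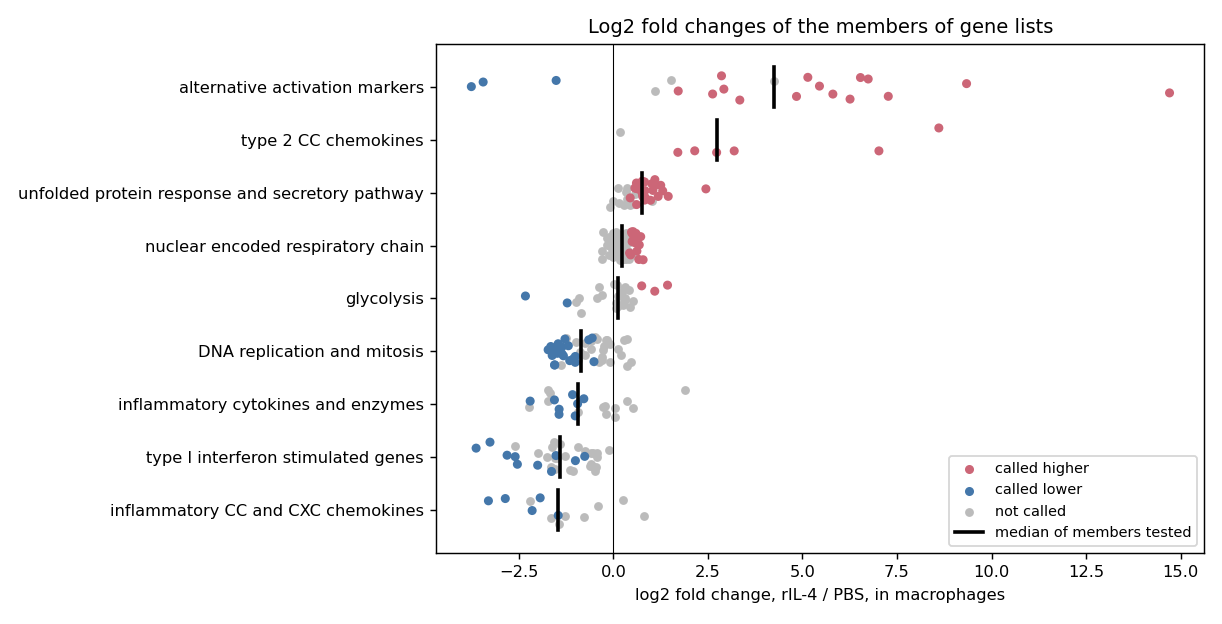
Log2 fold changes of rIL-4 over PBS (horizontal axis) for the tested members of 9 gene lists, 1 point per gene, red where called higher, blue where called lower and grey where not called, with a bar at the list's median. Medians run from 4.25 for alternative activation markers to -1.46 for inflammatory chemokines.

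Interferon-stimulated genes were all on the lower side without all passing the test. Of 35 tested members, 10 were called lower, 0 were called higher and 0 had a positive log2 fold change, with a median of -1.42. Ifit3 (chromosome 19 from 34583531 to 34588731), an RNA-binding antiviral protein, had 423, 1108 and 2543 counts in PBS mice 1, 2 and 3 and 143, 146 and 131 in rIL-4 mice (log2 fold change -3.26 ± 0.62, adjusted p = 0.00658), and its close copy Ifit3b, which could share its reads, had 100.5, 189 and 551 and 19.4, 30.7 and 16.96 (log2 fold change -3.63 ± 0.61, adjusted p = 0.00362). They were 6.35 and 14.4 times as high in rIL-13 microglia as in rIL-13 macrophages. Ifit2 had 489, 575 and 1779.6 and 122, 142 and 137 counts (log2 fold change -2.81 ± 0.57, adjusted p = 0.00934). The PBS mice differed widely from each other, with mouse 3 highest and mouse 1 lowest in these genes, while the rIL-4 mice were close together. The count of calls varied with the mouse left out: it was 16 without PBS mouse 1, 4 without PBS mouse 2, 3 without PBS mouse 3 and 4 without rIL-4 mouse 8 or 10. With DESeq2's Wald test 17 were called lower, and 3 of the 21 members not higher in rIL-13 microglia were. Bst2, which tethers budding virus at the membrane, had a log2 fold change of -1.004 ± 0.23.

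Interferon-stimulated genes are known to carry elements of repeated GAAA, to which IRF and STAT complexes bind. For that reason 2 promoters of this kind are shown, both chosen with a match. The 250 bases before the RefSeq start (GRCm38.p6) are given on the gene's strand, with each match to GAAANNGAAA on either strand in capitals.
Ifit3, chr19:34583279-34583528, plus strand: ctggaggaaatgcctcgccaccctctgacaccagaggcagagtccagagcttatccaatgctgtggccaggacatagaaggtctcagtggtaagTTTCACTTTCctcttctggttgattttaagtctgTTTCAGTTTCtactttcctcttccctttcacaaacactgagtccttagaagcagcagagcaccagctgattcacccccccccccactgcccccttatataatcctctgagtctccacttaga
Cxcl10, chr5:92348890-92349139, minus strand: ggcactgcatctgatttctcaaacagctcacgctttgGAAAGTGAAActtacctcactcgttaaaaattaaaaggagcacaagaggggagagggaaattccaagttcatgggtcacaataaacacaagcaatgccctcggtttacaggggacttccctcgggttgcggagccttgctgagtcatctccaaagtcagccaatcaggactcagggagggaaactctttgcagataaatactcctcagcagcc
Ifit3 held 2 matches, 156 and 122 bases before its start, and Cxcl10 held 1, 213 bases before. Of 25 list members with a sequence, 13 held the motif (52.0%), against 3.45% of the 9752 tested genes with one, 4.94% of the genes called lower and 2.39% of those called higher. The motif was in 0 of 15 alternative activation markers.

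Few genes of antigen presentation were called, near the shares over all genes (6.77% higher and 7.20% lower). Of 16 class II genes, H2-DMa and Ifi30 were higher and H2-Ob was lower, and of 22 class I genes, with a median of -0.02, Calr and Pdia3 were higher and B2m was lower. Ifi30, a thiol reductase that opens disulfide bonds of antigens in lysosomes, had 20382, 28816 and 26846 counts with PBS and 60215, 52610.3 and 56628 with rIL-4 (log2 fold change 1.17 ± 0.17, adjusted p = 0.00191). H2-DMa, which loads peptides on class II molecules, was higher by a log2 fold change of 0.73 ± 0.14, and H2-Ob, part of the inhibitor of that loading, was lower (-2.02 ± 0.52). B2m, the light chain of class I, fell from 49781, 100788 and 84539.6 to 46951, 44965 and 43072 counts (log2 fold change -0.79 ± 0.22, adjusted p = 0.0393), where PBS mouse 1 was close to the rIL-4 mice. Cd274 (PD-L1) rose from 1331, 1678 and 1194 to 2677, 3174 and 2272 counts (log2 fold change 0.96 ± 0.18, adjusted p = 0.00559). Among ligands that stimulate T cells or related receptors, Icosl fell from 521, 393 and 309 to 139, 131 and 119.6 (log2 fold change -1.64 ± 0.24, adjusted p = 0.00168) and Cd276 from 406, 271 and 380.1 to 52.4, 25.1 and 8.93 (log2 fold change -3.59 ± 0.52, adjusted p = 0.00168). Cd276 was 5.58-fold higher in rIL-13 microglia than in rIL-13 macrophages.

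Complement genes moved in both directions. Of 21 tested, 7 were lower and 3 were higher (C1ra, C3 and Cfp), with a median of -0.80, where 7.20% of all genes were lower and 6.77% higher. C3, the central component, rose from 2112, 2499.9 and 2093 to 8569, 11184 and 8834 counts (log2 fold change 2.100 ± 0.19, adjusted p = 0.000142), and Cfp, properdin, which stabilises the alternative pathway convertase, from 7618, 14472 and 11317 to 20816, 35082 and 26222 (log2 fold change 1.31 ± 0.30, adjusted p = 0.0164). The 3 chains of C1q fell: C1qa from 33092, 31219.8 and 35775 to 13282, 11528 and 13578, C1qc from 41731, 44744 and 50587 to 18914, 16314 and 15393, and C1qb by a log2 fold change of -0.91 ± 0.19. C1q is made by microglia as well as macrophages, and in the rIL-13 libraries C1qa was 2.12 times, C1qb 1.402 times and C1qc 1.91 times as high in microglia. The count of lower genes was 3 without rIL-4 mouse 8 and 4 without PBS mouse 2, PBS mouse 3 or rIL-4 mouse 10, and that of higher genes 1 without PBS mouse 1 or 3.

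Fc receptors also split. Fcgr2b, the inhibitory receptor CD32, had 17939, 20640.4 and 20418 counts with PBS and 45400.3, 79943 and 57172 with rIL-4 (log2 fold change 1.64 ± 0.21, adjusted p = 0.00101). Fcgr1, the high-affinity activating receptor CD64, had 9293, 15079 and 16519 and 3846, 6676 and 5950.0 counts (log2 fold change -1.304 ± 0.30, adjusted p = 0.0176). Fcgr3, the activating receptor CD16, overlapped between the groups (log2 fold change 0.56 ± 0.23, adjusted p = 0.142). The antibody against CD16/32 used on these cells binds the products of both Fcgr3 and Fcgr2b. Fcgrt, the neonatal Fc receptor that recycles antibody, rose from 957, 699.6 and 913 to 2963, 4592 and 4108 (log2 fold change 2.19 ± 0.28, adjusted p = 0.000941).

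Of 27 scavenger and lectin receptors, 7 were higher and 10 were lower, both above the shares over all genes. Besides Mrc1, Cd163, Mgl2 and Clec7a, the higher ones were Clec10a, Clec4a3 and Olr1. Cd5l, a secreted scavenger protein of tissue macrophages, fell from 1215, 946 and 1506 to 42.2, 42.8 and 62.5 counts (log2 fold change -4.62 ± 0.31, adjusted p = 2.44e-05). In the genes with a mean of at least 50 counts the list's median was 0.04 rather than -0.27, and in those not higher in rIL-13 microglia it was 0.25. Genes for the clearance of dead cells were lower in 5 of 24 cases and higher in 3 (7.20% and 6.77% over all genes). Gas6, the bridge between phosphatidylserine and the receptors Axl and MerTK, fell from 6308, 5117 and 5452 to 899, 785 and 1291 (log2 fold change -2.49 ± 0.20, adjusted p = 7.32e-05), and Stab1 (stabilin-1) from 30535, 21646 and 26212 to 7187, 5475 and 9268 (log2 fold change -1.83 ± 0.22, adjusted p = 0.000552). Itgb3, the β3 integrin, rose from 262, 114 and 222 to 722, 1471 and 1068 (log2 fold change 2.45 ± 0.33, adjusted p = 0.00107), and Anxa1 by a log2 fold change of 0.54 ± 0.14. Without PBS mouse 1, 2 or 3 or rIL-4 mouse 9, 1 of the 3 was called.

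Genes of lipid and iron handling were called in both directions. Of 27 genes of lipid efflux and storage, 7 were lower and 2 were higher (7.20% and 6.77% over all genes), and 3 or 4 were called lower without any 1 of PBS mice 1, 2 and 3 or rIL-4 mouse 10. Apoe, the main apolipoprotein of macrophages and microglia, had 656145, 536628 and 622776 counts with PBS and 229635, 78516 and 186140.0 with rIL-4 (log2 fold change -1.86 ± 0.46, adjusted p = 0.024), and it went from rank 7 to rank 18 by length-scaled level. Apoc2 fell from 9387, 14478 and 12586 to 2692, 1279 and 3443 (log2 fold change -2.28 ± 0.35, adjusted p = 0.00229), and Lpl, lipoprotein lipase, from 3453, 3381 and 4046 to 1791, 1487 and 1109 (log2 fold change -1.299 ± 0.21, adjusted p = 0.00323). Trem2, the lipid receptor of phagocytes, was lower by a small margin (log2 fold change -0.75 ± 0.21, adjusted p = 0.0414). Of 21 genes of heme and iron handling, 7 were lower and 4 were higher. Slc40a1, the iron exporter ferroportin, fell from 1104, 879 and 801 to 137, 234 and 222 (log2 fold change -2.23 ± 0.27, adjusted p = 0.000617), Slc11a1, the phagosomal metal pump NRAMP1, by a log2 fold change of 1.18, and Hmox1, Blvrb and Fth1 were called lower as well. Slc40a1 was 8.296 times as high in rIL-13 microglia as in rIL-13 macrophages, and the part of microglia in its fall was not tested. Trf, transferrin, rose from 14438, 11622 and 14139 to 31556, 29704 and 24228 (log2 fold change 1.099 ± 0.16, adjusted p = 0.00187).

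Antioxidant genes were lower in 8 of 32 cases and higher in 2 (Prdx2 and Prdx3). Over all genes 7.20% were lower and 6.77% higher, so that the 2 higher antioxidant genes were near that share. Cybb, the catalytic subunit of the NADPH oxidase that makes superoxide, fell from 10717, 9949.9 and 11811 to 4565, 5093 and 2930.4 counts (log2 fold change -1.36 ± 0.19, adjusted p = 0.00139), and Sod1, which removes superoxide, from 4688, 7143 and 7051 to 1783, 2724 and 2314 (log2 fold change -1.46 ± 0.24, adjusted p = 0.00302). Prdx6 had a log2 fold change of -1.21 ± 0.21 and Gpx3, which was 10.2 times as high in rIL-13 microglia as in rIL-13 macrophages, of -1.59 ± 0.27. Without PBS mouse 2, PBS mouse 3 or rIL-4 mouse 10, 5 were called lower. In eicosanoid synthesis, 7 of 19 genes were lower and 2 were higher. Hpgds, the haematopoietic prostaglandin D synthase, fell from 3005, 2434 and 3279 to 457, 229.8 and 326 (log2 fold change -3.09 ± 0.33, adjusted p = 0.000292), and Hpgd, which breaks prostaglandins down, from 1058, 525 and 1007 to 32.1, 35.4 and 33.9 (log2 fold change -4.66 ± 0.39, adjusted p = 8.55e-05). They were 5.12-fold and 5.65-fold higher in rIL-13 microglia than in rIL-13 macrophages. Tbxas1, thromboxane synthase, rose from 6222, 5408 and 6154 to 12932, 12451 and 11561 (log2 fold change 1.06 ± 0.14, adjusted p = 0.00098), and Ptger2, a prostaglandin E2 receptor, by 0.87 ± 0.12, while the related receptor Ptger4 fell from 1118, 812 and 668 to 237, 234 and 150.0 (log2 fold change -2.06 ± 0.25, adjusted p = 0.000603).

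Metabolic genes were called in both directions. Of 21 genes of arginine and polyamine metabolism, 6 were higher, among them Ass1 and Oat, and 1, Azin1, was lower. Oat, which turns ornithine towards proline, rose from 3733, 3132 and 3551 to 7343, 7582 and 7158 counts (log2 fold change 1.09 ± 0.12, adjusted p = 0.000409). Glycolysis had 3 of 27 genes higher and 2 lower, near the shares over all genes (6.77% and 7.20%), with a median of 0.13. Ldha, which makes lactate, rose from 39069.6, 49038 and 47188 to 87915, 107100.0 and 91964 (log2 fold change 1.09 ± 0.15, adjusted p = 0.00117), and Ldhb, its isoenzyme subunit, fell from 2342, 1313 and 2481 to 467, 356 and 390.1 (log2 fold change -2.33 ± 0.33, adjusted p = 0.00154). Ldha was 0.533 times and Ldhb 6.04 times as high in rIL-13 microglia as in rIL-13 macrophages, and the part of microglia in the fall of Ldhb was not tested. Pfkfb4 rose (1.43 ± 0.21) and Pfkfb3 fell (-1.22 ± 0.13), both of them enzymes that set the level of the glycolytic activator fructose 2,6-bisphosphate. Of 22 genes of the hypoxia response, 5 were higher and 1 was lower, with a median of 0.56. Ero1l, an oxidase of the endoplasmic reticulum that hypoxia induces, rose from 4089.5, 4656 and 4114 to 8245, 18213 and 10157 (log2 fold change 1.51 ± 0.27, adjusted p = 0.00507).

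Of 76 nuclear genes of the respiratory chain, 15 were higher and 0 were lower, with a median log2 fold change of 0.23 and 61 positive values. These 15 spanned complexes I, II, III and V. Uqcrc1, of complex III, had 7341, 7995 and 8489 counts with PBS and 11986, 15675 and 13176 with rIL-4 (log2 fold change 0.79 ± 0.13, adjusted p = 0.0033). Ndufv2, of complex I, was higher by 0.72 ± 0.14 and Sdhd, of complex II, by 0.67 ± 0.14. The number of calls was 6 without rIL-4 mouse 9, 5 without rIL-4 mouse 10 or PBS mouse 3, and 3 without PBS mouse 1 or 2. Of 43 genes of the tricarboxylic acid cycle and fatty acid oxidation, 10 were higher and 0 were lower. Idh2, the mitochondrial isocitrate dehydrogenase, had 3209, 3138 and 3207 and 6342, 5960.0 and 5915 counts (log2 fold change 0.94 ± 0.11, adjusted p = 0.000602), and Idh1, its cytosolic counterpart, 7125, 7248 and 7114 and 18553, 12498 and 15192 (log2 fold change 1.12 ± 0.21, adjusted p = 0.0057). Between 2 and 5 of these genes were called with any 1 mouse left out, 2 of them without rIL-4 mouse 10.

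The 13 protein genes of the mitochondrial genome had a median log2 fold change of 0.65, and 5 were called higher (mt-Nd4, mt-Nd5, mt-Cytb, mt-Co1 and mt-Co2). mt-Co1, a core subunit of complex IV, had 109447, 80193 and 88834 counts with PBS and 225162, 149175 and 170340.0 with rIL-4 (log2 fold change 0.98 ± 0.22, adjusted p = 0.0143), and mt-Cytb, of complex III, 38049.7, 26647 and 28933 and 63271, 41605 and 53137 (log2 fold change 0.77 ± 0.19, adjusted p = 0.0259). Nuclear copies of mitochondrial sequence could share these reads. The 13 genes took 0.745%, 0.532% and 0.579% of the counts in PBS mice 1, 2 and 3 and 1.41%, 0.836% and 0.983% in rIL-4 mice 8, 9 and 10, which did not overlap (exact permutation test, p = 0.1, the smallest p for 3 against 3). With a mouse left out, 0 genes were called without PBS mouse 2 or PBS mouse 3, 4 without PBS mouse 1, 2 without rIL-4 mouse 8 or 10, and 8 without rIL-4 mouse 9. All 13 genes were also higher in rIL-13 microglia than in rIL-13 macrophages.

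The list of secretory machinery had more members called higher than any other. Of 38 tested genes of the unfolded protein response and secretory pathway, 26 were higher and 0 were lower, with a median log2 fold change of 0.75. The calls numbered 16 without PBS mouse 3 and between 18 and 24 without any other 1 mouse, and 26 of the 37 members that were not higher in rIL-13 microglia were called. Pdia4, a disulfide isomerase of the endoplasmic reticulum, had 14156, 13765 and 14590.0 counts with PBS and 64364, 93522 and 72563 with rIL-4, 5.45-fold higher (log2 fold change 2.45 ± 0.17, adjusted p = 2.6e-05). Creld2, a stress-induced chaperone, had 2848, 3522 and 3607 and 9413, 9299.7 and 8348 counts (log2 fold change 1.45 ± 0.13, adjusted p = 0.000123). Ssr2, of the translocon-associated complex, rose from 4460.3, 5684 and 5527 to 10254, 13452 and 11681 (log2 fold change 1.18 ± 0.14, adjusted p = 0.000561), and Rpn1, of the complex that attaches sugars to new proteins, from 13952, 13209 and 14233 to 29606, 27289.6 and 27854 (log2 fold change 1.04 ± 0.12, adjusted p = 0.000568). The chaperones Hspa5, Hsp90b1, Calr and Hyou1, the transcription factor Xbp1 and the channel subunit Sec61a1 were also called higher, while Ddit3 and Trib3, targets of the PERK and ATF4 branch, were not called. Of 78 cytosolic ribosomal proteins, 1, Rps2, was called higher (0.48 ± 0.13), and of 35 genes of ribosome biogenesis and nucleotide synthesis 4 were, among them Impdh1, which makes guanine nucleotides (log2 fold change 1.23 ± 0.16, adjusted p = 0.00102). Without any 1 of PBS mice 1, 2 and 3 or rIL-4 mice 9 and 10, 1 or 2 of these 4 were called.

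Genes of cell division were lower or not called. Of 50 tested genes of DNA replication and mitosis, 23 were lower and 0 were higher, with a median of -0.87. Ccnd1, the G1 cyclin D1, had 1035, 914 and 948 counts with PBS and 239, 381 and 253 with rIL-4 (log2 fold change -1.73 ± 0.25, adjusted p = 0.00165). Birc5 (survivin) fell from 850.1, 498 and 987 to 229.8, 294 and 213 (log2 fold change -1.65 ± 0.27, adjusted p = 0.00282), Cdc20, which starts anaphase, from 797, 397 and 833 to 238, 248 and 245 (log2 fold change -1.46 ± 0.25, adjusted p = 0.00393), and Ube2c, which works with it, from 685, 445 and 727 to 227, 174 and 191 (log2 fold change -1.64 ± 0.27, adjusted p = 0.00304). The count was 10 without PBS mouse 1, PBS mouse 3 or rIL-4 mouse 10. Of the 50 genes, 48 were higher in rIL-13 microglia than in rIL-13 macrophages, and the part that microglia in the libraries played in this fall was not tested.

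**Figure D5:**
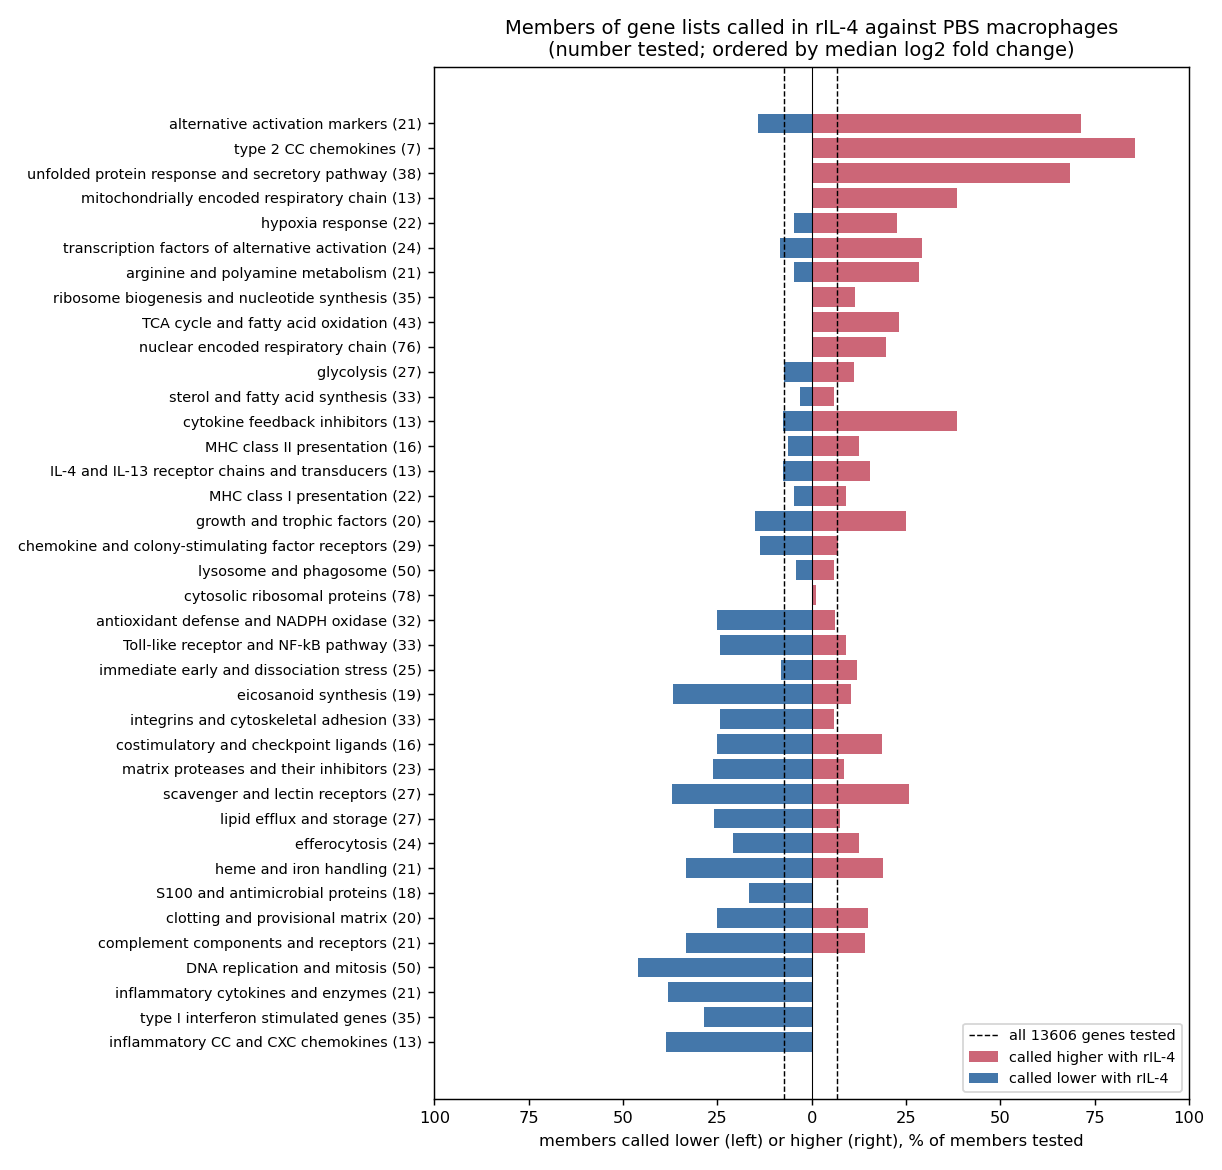
Share of the tested members of each gene list that were called higher (red, to the right) or lower (blue, to the left) with rIL-4, in percent, with the number tested in parentheses and lists ordered by their median log2 fold change. Dashed lines mark the shares over all 13606 genes tested (6.77% higher and 7.20% lower), which the alternative activation, type 2 chemokine and secretory lists exceed on the right and the replication and inflammatory lists on the left.

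Genes of the matrix and of clotting were called in both directions. Timp1, an inhibitor of matrix metalloproteases, rose from 919, 1226 and 1371 to 6285, 15619.9 and 12747 counts (log2 fold change 3.31 ± 0.38, adjusted p = 0.000464). Mmp14 and Mmp27 fell, the former from 2456, 3258 and 3096 to 1079.6, 1390.2 and 711 (log2 fold change -1.46 ± 0.26, adjusted p = 0.00435) and the latter from 658, 623 and 746 to 99.7, 60.5 and 78.5 (log2 fold change -3.07 ± 0.39, adjusted p = 0.000885), while Mmp12, the macrophage elastase, was higher by 1.08 ± 0.31. In all, 6 of 23 proteases and inhibitors were lower and 2 were higher, or 1 higher without PBS mouse 1, PBS mouse 3, rIL-4 mouse 8 or rIL-4 mouse 10. Over all genes 7.20% were lower and 6.77% higher, so that the 2 higher proteases and inhibitors were near that share. Of 20 genes of clotting and provisional matrix, 5 were lower and 3 were higher, with a median of -0.78, and of the 11 not higher in rIL-13 microglia 2 were lower and 3 higher. Fn1, fibronectin, rose from 66319.7, 41932 and 37219 to 204941, 153550.0 and 230794 (log2 fold change 2.03 ± 0.36, adjusted p = 0.0045), and F7, coagulation factor VII, from 5253, 6241 and 6988 to 22725, 16947 and 18701 (log2 fold change 1.67 ± 0.28, adjusted p = 0.00337). F13a1, the transglutaminase that crosslinks fibrin, fell from 48380.0, 48407 and 45445 to 6135, 11273 and 9939.9 (log2 fold change -2.37 ± 0.26, adjusted p = 0.000405), and Thbs1, thrombospondin-1, from 317697, 254076 and 199335 to 60395, 35800.3 and 81872 (log2 fold change -2.103 ± 0.35, adjusted p = 0.00324). Sparc, a matrix protein on the microglia list, had 7277, 3003 and 7781 and 326, 209 and 285 counts (log2 fold change -4.45 ± 0.39, adjusted p = 0.000111).

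Of 20 tested growth and trophic factors, 5 were higher and 3 were lower (6.77% and 7.20% over all genes). The count of lower genes was 1 without rIL-4 mouse 10 and 2 without any other 1 mouse. Hbegf, a heparin-binding ligand of the epidermal growth factor receptor, had 28.1, 42.04 and 31.9 counts with PBS and 1378, 6751 and 1835 with rIL-4 (log2 fold change 6.61 ± 0.85, adjusted p = 0.000905), opposite in direction to Tgfa and Areg. Tgfb3 had 42.2, 44.2 and 16.96 and 510.2, 1864 and 1372 counts (log2 fold change 5.18 ± 0.67, adjusted p = 0.000888), and Pdgfc, of the platelet-derived family, 28.1, 37.7 and 45.9 and 324, 408 and 469 (log2 fold change 3.43 ± 0.26, adjusted p = 4.29e-05). Cdh1 (E-cadherin), a target of IL-4 in macrophages that can mediate their fusion, had 383, 258 and 287 and 6359, 18478 and 7805 counts (log2 fold change 5.14 ± 0.51, adjusted p = 0.000221). Atp6v0d2, a proton pump subunit that also takes part in macrophage fusion, had 1098, 515 and 876 and 28105, 15393 and 20258 (log2 fold change 4.69 ± 0.53, adjusted p = 0.000446), and it was among the 3 of 50 lysosomal genes that were higher, a share near the 6.77% of all genes. Among receptors for other cytokines, Ifngr1, a chain of the interferon-γ receptor, rose from 6585, 6802 and 6986 to 12878, 17479 and 12078 (log2 fold change 1.07 ± 0.16, adjusted p = 0.00216), and Il17ra fell from 7642, 7577 and 7298 to 2971, 3195 and 3217 (log2 fold change -1.25 ± 0.12, adjusted p = 0.000154). Of 33 integrins and adhesion genes, 8 were lower, among them Vcl (-1.27 ± 0.18), which encodes vinculin, and 3 to 5 without PBS mouse 1, 2 or 3 or rIL-4 mouse 10. Of 18 S100 and antimicrobial genes, 3 were lower (Camp, Ngp and Lyz1). Of 25 genes induced by handling and stress, 3 were higher (Fosl2, Egr2 and Hsph1) and 2 were lower, Fos by a log2 fold change of 0.65 and Atf3, near the shares over all genes (6.77% and 7.20%).

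Some of the calls named above were lost when a mouse was left out. Those of Anxa1 and Trem2 were lost whichever mouse was left out, with adjusted p from 0.0614 to 0.114 and from 0.0644 to 0.12. Calr, Apoe and Fcgr1 kept theirs in 2 of 6 such fits, and Pdia3, B2m, Rps2, Mmp12, H2-Ob, Fos, Akt1 and Il13ra1 in 1. Ccl22 kept its call in the fits that left out PBS mouse 2 or rIL-4 mouse 10, and it had an adjusted p of 0.141 without PBS mouse 3. Bst2 missed the threshold without PBS mouse 2, PBS mouse 3 or rIL-4 mouse 8, Nfkb1 without PBS mouse 2, PBS mouse 3 or rIL-4 mouse 9, and Cfp without PBS mouse 1 or PBS mouse 3. Ccl3 was above 0.05 without rIL-4 mouse 8 (adjusted p = 0.0512) or mouse 10 (adjusted p = 0.0623), and Areg without mouse 10 (adjusted p = 0.0548). mt-Co1 lost its call without PBS mouse 2 or PBS mouse 3, and mt-Cytb also without rIL-4 mouse 8 or rIL-4 mouse 10. Of the genes named above without values of their own, Nlrp3, Lif and Tie1 lost their call in each of the 6 fits. C1ra, Il18, Prdx3, Ly6c1, Alox15, Tek, Tnfsf9 and Ass1 kept it in 1 fit and Fosl2, Atp8a2, Il1a, Hyou1, Lyz1, mt-Co2, mt-Nd5, Fscn1 and Cldn5 in 2. Hsp90b1, Xbp1, Irf8 and mt-Nd4 kept it in 3 and Ptpn2, Socs5 and Cxcl1 in 4. In the joint fit of the 18 libraries the counts of several lists were smaller too: among them, 3 complement, 3 antioxidant, 2 integrin and adhesion and 0 S100 and antimicrobial genes were called lower, and 5 genes of the citric acid cycle and fatty acid oxidation and 1 of the mitochondrial genome were called higher.

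How far these changes were those of rIL-4 rather than of a type 2 cytokine was asked with the rIL-13 macrophages. The direct test of rIL-4 against rIL-13 shares its rIL-4 libraries with the comparison above, so that the values are given side by side and their likeness is not measured. Of 13606 genes, 34 differed (0.250%), 4 of them higher with rIL-4 (0.0294%) and 30 lower (0.220%), while 1513 (11.1%) passed before adjustment. A Wald test in DESeq2 gave 420 genes, and the edgeR count ranged from 1 without rIL-4 mouse 8 to 23 without rIL-13 mouse 7. For Mrc1 the mean was 55033 ± 16161 normalized counts after rIL-4 (SD, n = 3), 45211 ± 8462 after rIL-13 and 1927 ± 226 after PBS. Chil3 had 3391320.0 ± 489465, 2232290.0 ± 403276 and 96714 ± 41252, in the same order. Retnla was at 30657 ± 13253 after rIL-4 against 7313 ± 2596 after rIL-13, and this difference did not pass the adjusted threshold. Ccl24 was at 148183 ± 86304 and 97334 ± 68390.0, and Tnf at 848 ± 194 and 929.7 ± 554.

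The 4 genes above the rIL-13 level are named here because they are so few, and Mogs and Gm42515 were chosen after their values were seen. They were Rnase2a (log2 fold change 2.16 ± 0.29, adjusted p = 0.0201), Mogs, a glucosidase that trims sugars on new proteins (1.27 ± 0.17, adjusted p = 0.0201), Cebpb, a transcription factor of myeloid cells (2.95 ± 0.47, adjusted p = 0.0415), and Gm42515. Cebpb had 891, 1129.7 and 2026 counts with PBS and 1572, 5163 and 2015 with rIL-4, which overlapped (log2 fold change 1.12 ± 0.44, adjusted p = 0.124). Among the 30 genes below the rIL-13 level, 23 were at least 4-fold higher in rIL-13 microglia than in rIL-13 macrophages (76.7%, against 9.03% of all genes tested). The genes with the lowest p were Pmp22 (-2.01 ± 0.17, adjusted p = 0.00387), Cx3cr1 (-2.65 ± 0.27, adjusted p = 0.0122) and Tmem119 (-2.05 ± 0.23, adjusted p = 0.0158). Pmp22, a membrane protein best known from myelin, had 3614, 2607 and 3638 counts with PBS, 426, 377 and 379 with rIL-4 and a mean of 1585 ± 196 with rIL-13. Tlr13 was among the exceptions, below its rIL-13 level (-0.74 ± 0.12, adjusted p = 0.0451) and 0.276 times as high in rIL-13 microglia as in rIL-13 macrophages. The summed microglia list was 2252 to 3509 CPM in rIL-13 macrophages and 1951 to 2407 in rIL-4 macrophages, and its part in these differences was not tested.

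Whether macrophages answered rIL-4 as microglia of the same cords did was tested by the difference between the 2 responses in a model of all 18 libraries. It passed for 164 of 16535 genes (0.992%), 83 with a higher value in macrophages (0.502%) and 81 with a lower one (0.490%), while 2050 (12.4%) passed before adjustment. In the same model rIL-4 changed 949 genes in microglia (5.74%), 482 higher (2.92%) and 467 lower (2.82%). The count ran from 18 without PBS mouse 3 to 109 without rIL-4 mouse 9, and a Wald test in DESeq2 gave 685. With the mouse as a replicate block, since each mouse gave both cell types, 188 genes passed, 66 higher and 122 lower. Some genes rose in macrophages and did not move alike in microglia. Hbegf had a log2 fold change of 6.61 in macrophages and 1.004 in microglia (difference 5.61 ± 1.08, adjusted p = 0.0231), and Tgfb3 of 5.18 and -0.62 (difference 5.805 ± 1.25, adjusted p = 0.0374). Pecam1 had 4.703 and 1.01, Rnase2a 10.14 and 7.199, and Slc7a2 5.804 and 3.26. Of the secretory genes, Pdia4 had 2.45 in macrophages and 0.93 in microglia (difference 1.51 ± 0.24, adjusted p = 0.00727), Calr 0.69 and -0.25, and Pdia3 0.57 and -0.30. Dhrs9, a retinol dehydrogenase, rose in macrophages by 1.28 but had 5.89 in microglia (difference -4.61 ± 0.59, adjusted p = 0.00167).

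Among the 81 genes with a lower response in macrophages, 53 were at least 4-fold higher in rIL-13 microglia than in rIL-13 macrophages (65.4%, against 19.7% of all genes tested). Among the 83 with a higher response, 23 were (27.7%). Adamts1 fell by 5.597 on the log2 scale in macrophages and had -0.38 in microglia, and Pcp4l1 had -5.58 and -0.22. Cx3cr1 had -4.58 and -2.09, Gas6 -2.49 and -1.06, and Hpgds -3.09 and -0.57. Acta2, a smooth muscle actin, was lower by less in macrophages (-1.14) than in microglia (-4.22), where the fibroblast and pericyte list summed to 3330 to 5055 CPM with PBS and to 487 to 2154 CPM with rIL-4. Of the alternative activation list, Slc7a2 and Flt1 passed this test with a higher value in macrophages and Fcrls with a lower one. Mrc1, Retnla and Ccl24 did not pass: Mrc1 was 4.84 in macrophages, Retnla 14.71 and Ccl24 8.61, with differences from microglia whose adjusted p was 0.833 for Mrc1, 0.58 for Retnla and 0.993 for Ccl24, which does not show that the responses were alike.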

How the data were processed

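RNA-seq libraries were made by the authors from sorted macrophages and microglia with a SMART-seq2 protocol, which starts from poly(A) tails, keeps no strand and uses no molecular identifiers. RNA input varied with the amount at hand. Per the labels and the study's methods, the authors mapped paired-end reads to GRCm38 with STAR 2.5.3a and deposited RSEM 1.3.0 expected counts for 53465 genes in 18 libraries, as whole numbers. Reads of overlapping genes or close copies cannot be told apart with certainty, and PCR copies count as reads.

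Genes were kept with edgeR's filterByExpr over the 9 macrophage libraries (13606 genes), scaled by TMM and tested with edgeR's quasi-likelihood test (edgeR 4.0.16, R 4.3.3). P-values were adjusted over all genes by Benjamini-Hochberg at 0.05. The third group, rIL-13, adds to the estimate of the spread. The rIL-4 response was compared between cell types by an interaction over all 18 libraries. Normalized counts, CPM and TPM were computed from the deposited counts and edgeR's size factors, TPM with union exon lengths of the GENCODE annotation of GRCm38. Standard errors are the absolute log2 fold change divided by the root of F. Single values per library were tested by an exact two-sided permutation test. Floors of 3 counts and count intervals cover counting error only. The 6 libraries compared are from different mice, 0 columns were left unused, and the 6 replicate pairs of the macrophage groups compared differed by far more than sampling noise. The tests were tried on simulated data first.

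Each mouse gave both a macrophage and a microglia library, so the mouse number pairs the cell types. The deviations of same-mouse libraries from their group means correlated at 0.0349 to 0.132 over 12284 genes, which is a description. The alternatives were DESeq2 1.42.0, limma-voom (limma 3.58.1), DESeq2 size factors in place of TMM in edgeR, other filters, fewer or more libraries, and each mouse left out.

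Members and gene lists were chosen with earlier results of these data known. Named genes were the 12 largest rises and falls (mean of at least 100 counts, no overlap), up to 4 members of each list by p with up to 2 in the opposite direction, all receptor, feedback, chemokine and transcription factor genes, the 8 lowest p of each other test, the 3 most abundant markers of each cell type, and the genes whose products the study measured. Promoters came from RefSeq (GRCm38.p6), where 214 of 276 named genes had an entry. Some genes that this rule names are not reported here.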

Additional observations from a re-analysis of the deposited data

Results flagged for a closer look

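The response to rIL-4 differed between macrophages and microglia of the same cords for 35 of the named genes, by the test of the difference between both responses (edgeR's quasi-likelihood test over 18 libraries, adjusted p under 0.05). The value in parentheses is the log2 fold change in macrophages minus that in microglia.

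Higher values in macrophages were those of Zfp821 (9.16), Pecam1 (3.70), Pdia4 (1.51), Trf (1.145), Hbegf (5.61), Rpn1 (0.88), Calr (0.94), Pdia3 (0.87), Tgfb3 (5.80), Slc7a2 (2.54) and Rnase2a (2.94), and, among genes at least 4-fold higher in rIL-13 microglia than in rIL-13 macrophages, of Acta2 (3.08), Crabp2 (9.84) and Flt1 (2.46). Zfp821, a zinc finger gene, reached its value through a log2 fold change of -9.97 in microglia against -0.81 in macrophages, and Acta2 was lower in both. Rpn1 missed the threshold with the mouse as a block (adjusted p = 0.0549).

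Lower values in macrophages, among genes at least 4-fold higher in rIL-13 microglia by the same measure, were those of Pmp22 (-2.31), Ecscr (-4.41), Jam2 (-3.40), St3gal6 (-4.52), Tgfa (-4.72), Sparc (-3.32), Cd72 (-2.18), Adamts1 (-5.22), Pcp4l1 (-5.37), Hpgds (-2.52), Epb41l3 (-3.42), Fcrls (-2.46), Ctla2b (-1.60), Htra3 (-2.35), Cx3cr1 (-2.49), Npnt (-3.74) and Ube2c (-1.41). Lower values among the other genes were those of Dhrs9 (-4.61), Cd5l (-3.33), Mbp (-1.52) and Gas6 (-1.43). Dhrs9 was higher with rIL-4 in both cell types. Microglia markers were lower with rIL-4 in the macrophage libraries (a summed level 0.391 times that with PBS), and their part in these differences was not tested.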

How the results depend on the processing

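No paired analysis was possible because the rIL-4 and PBS macrophages came from different mice, which share no numbers. For the difference between cell types, with mouse as replicate block, 188 genes passed, 66 higher and 122 lower, and 107 of them were among the 164 without it.

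Against PBS, the 18-library model called 1053 genes (454 higher, 599 lower), and counting only genes not higher in rIL-13 microglia, which was chosen after seeing the data, left 938 (602 and 336). With 1 mouse left out there were 1041 to 1614 calls, 485 to 799 higher and 526 to 815 lower. Other tools, filters and scalings stayed within 1.5 times, DESeq2 at 2660 included, and every call kept its sign. Against rIL-13, DESeq2 called 420 genes (164 higher, 256 lower), voom 5 (1 and 4), any counted gene 209 (58 and 151), the 6 libraries alone 7 (0 and 7) and 18 libraries 70 (66 lower), and with a mouse left out 1 to 23 (0 to 1 higher, 1 to 23 lower). For the difference between cell types DESeq2 called 685 (291 higher, 394 lower), and 18 to 109 passed with a mouse left out (8 to 65 higher, 10 to 44 lower).

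Of 209 called named genes, 141 kept their call in every setting and 68 lost it in at least 1. None changed sign. Of the named genes that were not called, Il4ra was at -0.23 without rIL-4 mouse 9 (range -0.23 to 0.81), Jak1 at 0.0002 without PBS mouse 1 (lowest -0.0688), and Ccl7 at -0.0819 with voom, -0.02 without PBS mouse 1 and -0.65 without rIL-4 mouse 9 (highest 0.57).

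List medians changed sign as follows. Receptors were at -0.02 without PBS mouse 2 and -0.0651 without rIL-4 mouse 9 (highest 0.049). MHC class I was at 0.0106 with voom, 0.15 without PBS mouse 2, 0.0042 without PBS mouse 3 (lowest -0.14) and 0.0095 in genes not higher in microglia. Scavenger and lectin receptors were at 0.0406 with a mean of at least 50 counts and 0.25 in genes not higher in microglia. Glycolysis was at -0.0091 without rIL-4 mouse 9 (highest 0.27), ribosomal proteins at 0.0781 without rIL-4 mouse 8 (lowest -0.31), and growth factors at 0.13 without PBS mouse 1 and, of the rIL-4 mice, 0.19 without mouse 8 or 0.0329 without mouse 10 (lowest -0.0892). Matrix proteases were at 0.17 with at least 50 counts and 0.0138 in genes not higher in microglia. With voom their median moved to -0.86 without changing sign.

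Other medians moved without changing sign. With at least 50 counts, alternative activation was at 4.82 and iron handling at -0.60. With voom, alternative activation was at 3.38. In genes not higher in microglia, alternative activation was at 5.14, transcription factors at 0.35, complement at -0.53, sterol synthesis at 0.19, clotting at -0.12, iron handling at -0.54 and eicosanoids at -0.059. With a mouse left out the ranges were 3.74 to 4.82 for alternative activation, 0.34 to 0.56 for transcription factors, -1.93 to -1.39 for inflammatory chemokines, -1.35 to -0.82 for inflammatory cytokines, -0.22 to -0.0655 for Toll-like receptors, -0.29 to -0.17 for costimulation, -0.86 to -0.62 for complement, -0.32 to -0.0828 for lipid efflux, 0.69 to 0.75 for the secretory pathway, -0.69 to -0.18 for matrix proteases, -0.38 to -0.15 for eicosanoids, -0.33 to -0.0358 for integrins and -0.20 to -0.078 for chemokine receptors. The cause of these shifts was not tested. Fewer libraries leave fewer degrees of freedom for the calls, on which a median of log2 fold changes does not depend.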
